A study of Mus musculus with 4 samples.

Results

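The mouse Dlk1-Dio3 domain carries a large imprinted group of microRNA genes, and 57 of the 700 mouse microRNA probes on the arrays were assigned to it by their microRNA number, leaving out probes whose name ends in a star (the older mark of a passenger strand). The rule used no measured value, though it was set with earlier results of these data known. The tumours were formed by 4T1, a cell line from a mouse mammary carcinoma, in female Balb/s mice (the strain name as the labels spell it). All 20 mice received 50000 4T1 cells in the mammary site, and at a tumour volume of 1 cm3 the primary tumour was given sham radiation or, in 10 mice, a dose of 10 Gy. The primary tumour was then removed and metastases grew on. The 4 groups were the primary tumour after sham radiation, the primary tumour after 10 Gy, metastases of sham-treated mice, and metastases of mice whose primary tumour had received 10 Gy. Metastases were thus not themselves the target of the radiation. Each group had 1 array, hybridised with 2 µg of total RNA labelled with Cy3, so no difference has a replicate check and the number of arrays limits the precision. The organ that held the metastases, and whether RNA came from 1 mouse or was pooled, are not stated in the labels.

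In the Dlk1-Dio3 domain, Dlk1, Rtl1 and Dio3 are protein-coding genes expressed from the paternal chromosome, while Meg3, Rian and Mirg are long noncoding RNAs expressed from the maternal chromosome. The microRNAs are cut from the maternal noncoding transcripts, and one set of them lies antisense to Rtl1. These microRNAs are known for their high levels in the embryo, the placenta and the brain, and for low levels in most other adult tissues.

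Of the 57 probes, 53 could be placed by their target sequence in the RefSeq microRNA table of build GRCm38.p6, 52 with an identical mature sequence and 1 (miR-337-3p) with shifted ends. The probes without an entry were those for miR-337-5p, miR-376c, miR-485 and miR-487b. The 53 placed probes target 43 hairpins, all on the plus strand, between miR-770-5p and miR-410 at chr12:109563710-109743784, a span of 180.1 kb. The first 13 hairpins end with Mir370 in Rian, and after 90.7 kb without a measured hairpin the other 30 hairpins, from Mir379 to Mir410, fill 34.7 kb. By RefSeq gene spans, 13 of the placed probes lie within Rtl1, 9 within Mirg, 2 within Meg3, 2 within Rian and 27 in no other listed gene.

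The 57 targets have 57 different seeds (bases 2 to 8, which pair with target messages), so no pair of members shares one. The target sequences of the probes that carry the results are given with the seed in capitals. The first 5 were detected on every array, and miR-341 and miR-493 are shown for their difference between the sham primary tumour and metastases.
miR-127: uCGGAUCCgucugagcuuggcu
miR-379: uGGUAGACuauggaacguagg
miR-409-3p: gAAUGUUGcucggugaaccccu
miR-134: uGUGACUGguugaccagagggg
miR-329: aACACACCcagcuaaccuuuuu
miR-341: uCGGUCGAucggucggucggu
miR-493: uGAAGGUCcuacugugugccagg
These are the mature sequences that RefSeq now calls miR-127-3p (chr12:109592888-109592909), miR-379-5p (chr12:109709065-109709085), miR-409-3p (chr12:109743204-109743225), miR-134-5p (chr12:109734145-109734166), miR-329-3p (chr12:109713541-109713562), miR-341-3p (chr12:109611556-109611576) and miR-493-3p (chr12:109580283-109580305).

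The cluster stood close to the background of the chips. Each probe had 5 spots, and a probe counted as detected when at least 3 of them exceeded the 95th percentile of the 180 empty spots of that array. By this rule 18 of 57 cluster probes (31.58%) were detected in the sham primary tumour, 5 (8.77%) in the primary tumour after 10 Gy, 26 (45.61%) in metastases of sham mice and 12 (21.05%) in metastases after 10 Gy. Among the other 643 probes the shares were 49.61%, 28.15%, 67.34% and 50.86% in the same order. The share of the cluster was thus below that of the other probes on each of the 4 arrays, and its order over the arrays followed theirs except that it was lower in metastases after 10 Gy than in the sham primary tumour. In all, 31 of 57 members (54.39%) were detected on at least 1 array, against 71.7% of the other probes, and 5 (8.77%) on all 4, against 27.22%. The median intensity above the empty spots lay between 7.28 and 18.5 units per array over the 57 members, and between 12.3 and 35.6 over the other probes. Of the imprinted Sfmbt2 cluster, another large group of mouse microRNA genes, 20, 8, 27 and 24 of 44 probes were detected, in the order primary sham, primary 10 Gy, metastases sham and metastases 10 Gy.

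**Figure D1:**
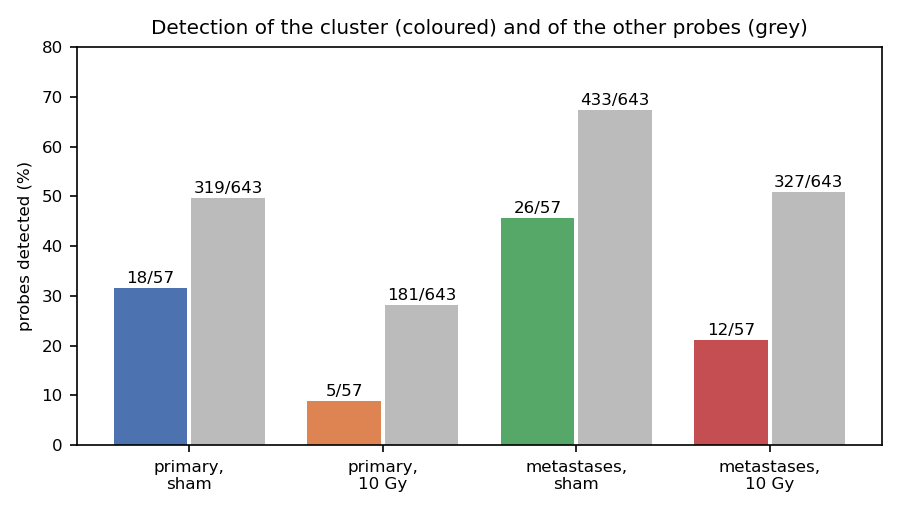
Share of probes detected on each array, in percent, for the 57 cluster probes (coloured bars) and the other 643 probes (grey bars), with counts above the bars. The coloured bar is the shorter one on each of the 4 arrays, and the shortest is the primary tumour after 10 Gy, with 5 of 57.

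The arrays differed in ways that bear on dim probes. The median of the empty spots was 171 units in the sham primary tumour, 417 in the primary tumour after 10 Gy, 177 in metastases of sham mice and 252 in metastases after 10 Gy. Their correlation with chip row was 0.60, -0.62, 0.17 and -0.52 in the same order. In metastases after 10 Gy, 32 of 57 members had exactly 2 of 5 spots above the limit, as did 185 of all 700 probes. There the share of members above it went from 68.4% in the copies nearest the first row (rows 1 to 28) to 24.6% in rows 79 to 106 and 36.8% in the last copies. Over all probes these shares were 79.3%, 47.7% and 49.6%. The SD over the 5 spots of a member had a median of 25.7 units on that array and 24.2 in the primary tumour after 10 Gy. It was 11.5 in the sham primary tumour and 10.95 in metastases of sham mice. The SD of the empty spots was highest in the primary tumour after 10 Gy, at 33.3 units, against 14.8, 15.1 and 17.3 in primary sham, metastases sham and metastases 10 Gy. With the row trend removed, 19, 7, 22 and 16 members were detected in the order of the counts above, or 33.33%, 12.28%, 38.6% and 28.07%. The shares of the other probes were then 54.43%, 32.04%, 66.72% and 57.7%. The part of the row trends in the detection counts was not tested.

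Detection differed between the sides of the cluster, but not in the same direction on all arrays. On the side that holds the Meg3, Rtl1 and Rian hairpins, detected members numbered 8 of 18 for the sham primary tumour, 1 for the irradiated one, 13 for metastases of sham mice and 2 for metastases of irradiated mice. On the side from miR-379 to miR-410 the counts were 10, 4, 13 and 10 of 39. By share, the first side was ahead on the sham arrays and behind on the arrays after 10 Gy. Over all arrays, 13 of 18 members were detected at least once on the first side and 18 of 39 on the second. The share of the other probes was 71.7%, near that of the first side. All 13 members of the first side were detected in metastases of sham mice. Neighbouring hairpins differed: miR-379, the first hairpin of its group, was detected on all 4 arrays and the next hairpin, miR-411, on no array (0). The seeds of miR-379 and miR-411 differ by G2A, counted from the 5′ end of miR-379, and 14 of their first 21 bases are identical. Likewise miR-329 was detected on all 4 arrays, while miR-758 and miR-679 on either side of it and of miR-494 were not detected on any (0).

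Where both arms of a hairpin had a probe under the rule, often only one arm was seen. miR-409-3p was detected on all 4 arrays and miR-409-5p on none (0). miR-770-3p, whose hairpin lies within Meg3, was detected on 3 arrays and miR-770-5p on none (0). Among these 10 hairpins, Mir323 and Mir369 had neither arm detected. The 31 members detected at least once had a median GC content of 54.55% and the 26 never detected one of 45.45%, against 47.62% for the other 643 probes, which is a description of targets that share one chip design. Target length had a median of 22 bases in all these sets.

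**Figure D2:**
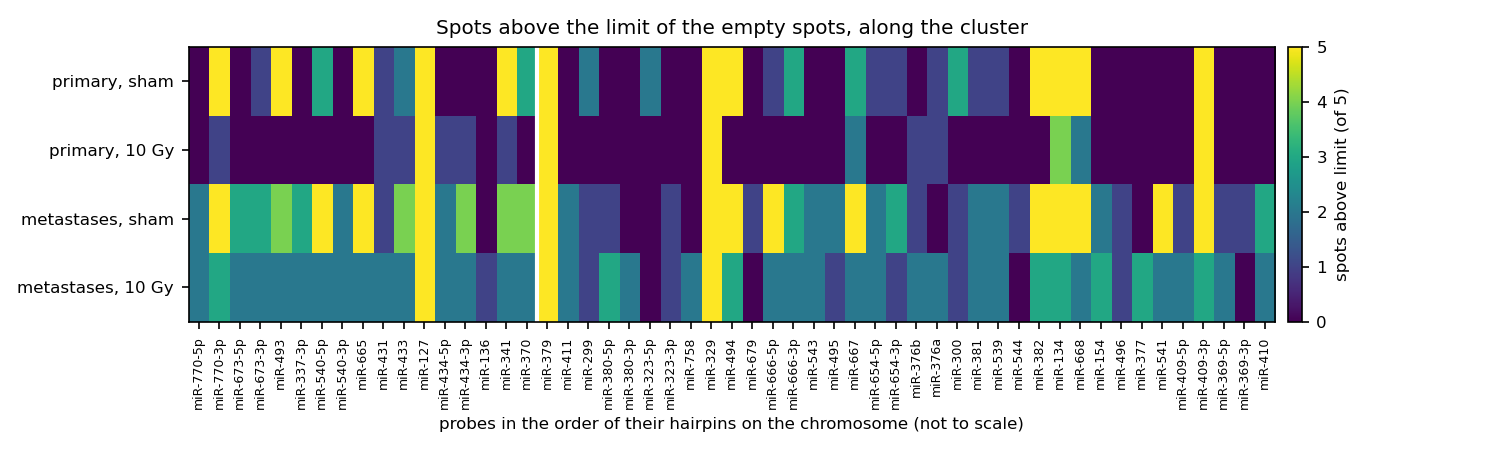
Number of spots above the limit of the empty spots (colour, 0 to 5) for the 53 placed probes, in the order of their hairpins (x axis, not to scale) on each array (rows); the white line marks the gap of 90.7 kb between Mir370 and Mir379. miR-127, miR-379 and miR-329 have 5 spots above the limit on each array, and most probes in metastases after 10 Gy have 2.

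The 5 microRNAs detected on every array were miR-127, miR-379, miR-409-3p, miR-134 and miR-329. With the 99th percentile as the limit miR-134 left this set, and when all 5 spots were required miR-409-3p left it too. With the row trend removed miR-668 and miR-770-3p joined it, making 7, and when 1 spot sufficed it held 11 members. Intensities are given as the mean above the median of the empty spots, ± the SD over 5 spots, and a value of 1 probe is not set against that of another. miR-127, which is antisense to Rtl1 and directs cleavage of its message, had an intensity of 90.3 ± 13.7 in the sham primary tumour, 211 ± 70.4 in the primary tumour after 10 Gy, 84.5 ± 20.5 in metastases of sham mice and 107 ± 29.95 in metastases of irradiated mice. For miR-127 the irradiated primary tumour was high and the other 3 arrays lay close together. The lowest spot of the irradiated primary tumour (124.2) exceeded the highest spot of both sham arrays (107.2 and 118.2). It did not exceed the highest spot of metastases after 10 Gy (153.5). How many of all probes separated in this way was not counted. miR-379 had intensities of 83.9 ± 11.4, 148 ± 41.35, 102 ± 10.6 and 86.8 ± 36.3 in the same order. Here too the irradiated primary tumour was the high one, though its lowest spot (85.4) lay within the range of the sham primary tumour (70.9 to 94.96).

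miR-409-3p, reported to promote the epithelial-to-mesenchymal transition in human prostate cancer cells, had intensities of 63.4 ± 11.3 in the sham primary tumour, 90.7 ± 25.7 in the primary tumour after 10 Gy, 63.6 ± 14.7 in metastases of sham mice and 29.4 ± 28.8 in metastases of irradiated mice. In the last of these, 3 of 5 spots were above the limit and the lowest was at -6.88. miR-134, known in rat neurons for limiting the growth of dendritic spines through Limk1, had intensities of 140.5 ± 14.7, 103 ± 42.95, 81.8 ± 13.8 and 32.3 ± 25.9 in the same order. The sham primary tumour was high for miR-134 and metastases after 10 Gy were low, with the spots of these arrays not overlapping.

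miR-329, which in the mouse has been linked to limits on new vessel growth after ischaemia, had intensities of 974 ± 85.1 in the sham primary tumour, 766 ± 144 in the primary tumour after 10 Gy, 684 ± 65.7 in metastases of sham mice and 420.5 ± 108 in metastases after 10 Gy. The spots of the sham primary tumour (901.1 to 1087) did not overlap those of the metastases of sham mice (588.2 to 756.0), and those of the irradiated primary tumour (655.9 to 949.0) did not overlap those of the metastases after 10 Gy (338.7 to 608.6). The probe for miR-362-3p has the same seed as miR-329 and the same first 8 bases, but its hairpin is not among the members. It was detected only in metastases of sham mice, at 28.7 units.

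**Figure D3:**
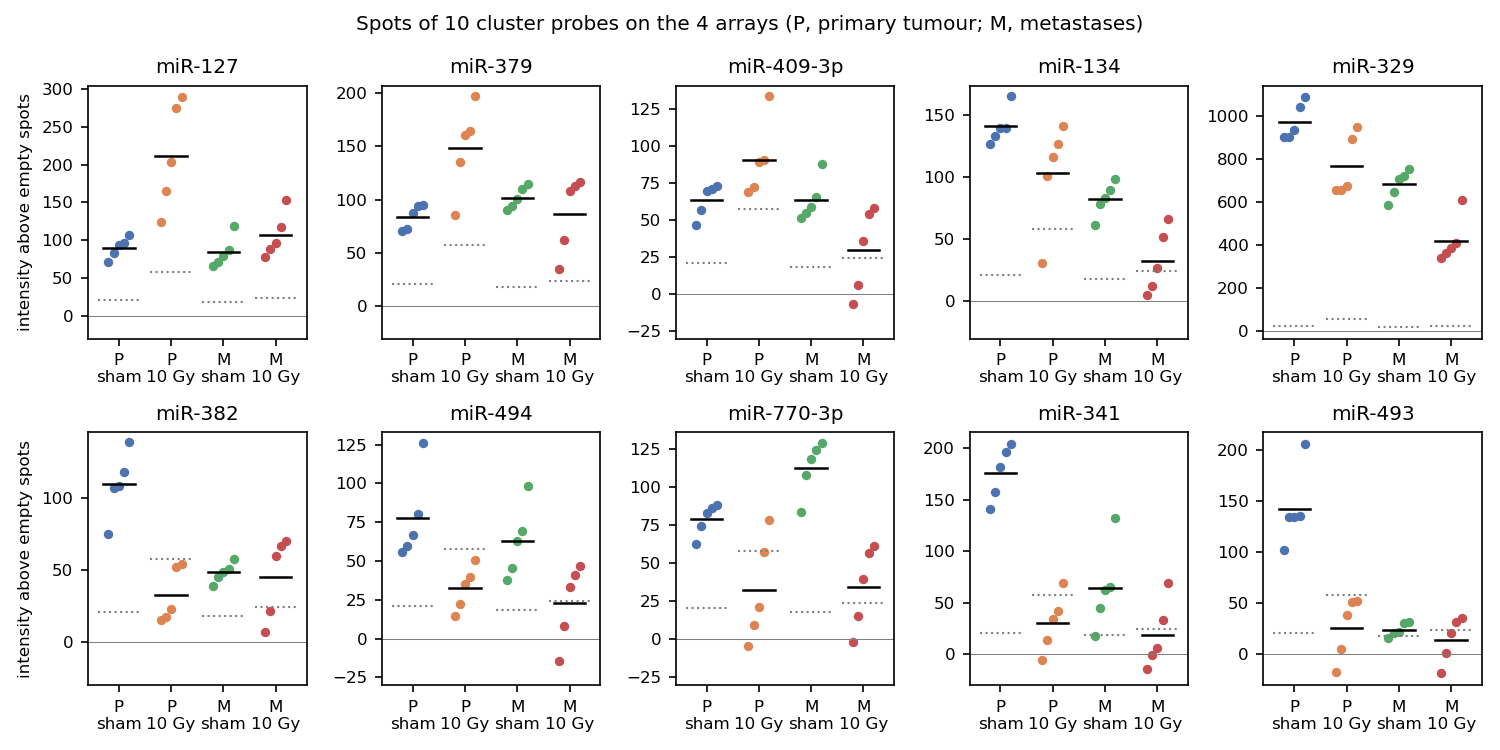
Intensity above the median of the empty spots (y axis, a separate linear scale per panel) of each of the 5 spots (points) and their mean (black bar) for 10 cluster probes on the 4 arrays; the dotted line is the detection limit of the array. miR-127, miR-379 and miR-409-3p are highest in the primary tumour after 10 Gy, while miR-134, miR-329, miR-341 and miR-493 are highest in the sham primary tumour.

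The first comparison asks how the primary tumour differed after 10 Gy from the sham-treated one. After background correction and quantile normalisation, miR-127 showed a log2 difference of 1.55 ± 0.35 in favour of the irradiated tumour (2.93-fold) and miR-379 one of 1.34 ± 0.17 (2.53-fold). The error is the SD of the differences between spots at the same chip position (5 pairs), so it covers scatter within the chips only. miR-409-3p was higher by 0.93 ± 0.26, miR-329 by 0.76 ± 0.13 and miR-134 by 0.47 ± 0.41. These 5, the members detected on both arrays, all had a positive difference, as did 58.7% of the 184 probes detected on both. They were all the members detected in the irradiated tumour, the array with the highest limit, so a member dim there could not be among them. A probe was counted past 2-fold when its difference was at least 1 on the log2 scale, or when its bound was, if only 1 of the 2 arrays detected it. By this count 2 of 18 members were higher, where the share over all 339 probes was 14.7%, and 0 of 18 were lower, where it was 13%. The median over the 18 members was 0.13, and -0.06 over all 339 probes. Over all probes 50 were higher and 44 lower, which became 7 and 89 without normalisation, 82 and 25 with scaling to the 75th percentile, and 28 and 58 with cyclic loess.

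Scaling decided part of this comparison. Without normalisation miR-127 was still higher by 0.80, miR-379 by 0.55 and miR-409-3p by 0.38, but miR-134 was at -0.13 and miR-329 at -0.29. With scaling to the 75th percentile, which put the median of all probes at 1.13, the 5 differences lay between 1.13 and 2.22, so that miR-329, at 1.13, equalled the median of all probes. Among the members detected in the sham primary tumour alone, miR-341 (176 ± 26.6 units in the sham primary tumour and 30.6 ± 28.7 after 10 Gy) was lower in the irradiated tumour by a factor of at least 1.44. miR-493 (142 ± 38.3 and 26.0 ± 30.6 units), reported to suppress liver metastasis of human colon cancer cells, was lower by a factor of at least 1.30, and miR-382 (109 ± 22.9 and 32.2 ± 19.2 units) by at least 1.16. These bounds apply to quantile normalisation and leave out the scatter between spots. With scaling to the 75th percentile the median over the 18 members went from 0.13 to 1.40. For the other 10 members detected in the sham primary tumour alone no bound above 1 could be given. One of them, miR-668, had a measured difference of 1.199 ± 1.10 that rested on a single spot at 798.5 units, with the other 4 between 26.0 and 92.8.

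The second comparison sets metastases of irradiated mice against those of sham mice. None (0) of 30 members was past 2-fold in either direction, where the share over all 481 probes was 2.29% higher and 2.49% lower. miR-127 had the largest difference of the 8 members detected on both arrays, 0.62 ± 0.34, and it was positive under all 9 other settings tried for it, from 0.31 without normalisation to 1.54 with the median of the empty spots subtracted. miR-379 was at 0.35 ± 0.30 and miR-382 at 0.34 ± 0.29, with miR-379 at -0.01 without normalisation. miR-329 (0.03 ± 0.26), miR-409-3p (-0.06 ± 0.40), miR-134 (-0.11 ± 0.39), miR-494 (-0.12 ± 0.30) and miR-770-3p (-0.24 ± 0.25) differed by no more than the scatter between spots after quantile normalisation. Without normalisation these 5 were at -0.58, -0.21, -0.35, -0.27 and -0.58 in the same order. Of the members detected on 1 of the 2 arrays, bounds ran up to 1.199-fold, for miR-154, higher after 10 Gy. The median over the 30 members was -0.05, and -0.02 over all 481 probes. Over all probes 11 were higher and 12 lower, which became 7 and 71 without normalisation and 41 and 10 with scaling to the 75th percentile.

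A further comparison, between metastases and the primary tumour without radiation, used the 2 arrays with the lowest background. Here 17 members were detected on both arrays, and 13 of them were lower in metastases. Of all probes detected on both, 48.9% were higher in metastases. No member (0 of 27) passed 2-fold in either direction, where 11.8% of 473 probes were higher and 10.6% lower, but miR-493 and miR-329 stood just short of it, at -0.99 ± 0.16 and -0.98 ± 0.07. miR-341 was at -0.82 ± 0.45, miR-382 at -0.60 ± 0.13 and miR-134 at -0.54 ± 0.12. Over all probes 56 were higher and 50 lower, which became 86 and 52 without normalisation, 58 and 70 under 75th percentile scaling, and 52 and 74 with cyclic loess. Of the 17 member differences, 6 were negative by more than the scatter between their spots and 0 were positive by more than it. By the same count 35.3% of all probes detected on both arrays were lower, the same share as 6 of 17, and 38.4% were higher.

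The raw intensities show the same order for these microRNAs. miR-493 had 142 ± 38.3 units in the sham primary tumour and 24.1 ± 6.94 in metastases of sham mice, and its spots did not overlap (101.5 to 205.6 against 15.6 to 31.6). miR-341, a microRNA of rodents, had 176 ± 26.6 and 64.4 ± 42.3 units, and miR-382 109 ± 22.9 and 48.1 ± 6.82. The normalised differences of such dim probes are shrunk by the offset of 50 units added after background correction. With the median of the empty spots subtracted and no offset, miR-493 was at -3.36, miR-341 at -2.37, miR-382 at -1.87, miR-134 at -1.40 and miR-329 at -1.14, and 7 of 27 members counted as at least 2-fold lower (25.9%), near the 21.4% of all probes in that setting. None (0) of 27 counted as higher, where 22.6% of all probes did. All 5 were negative in each of the other settings tried for them. In contrast miR-379 (-0.05 ± 0.12), miR-409-3p (-0.12 ± 0.13) and miR-127 (-0.17 ± 0.23) lay within or near the scatter between spots, as did miR-770-3p at 0.05 ± 0.17.

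The last comparison sets metastases against the primary tumour after 10 Gy. All 5 members detected on both arrays were at least 2-fold lower in metastases: miR-329 by a difference of -1.71 ± 0.27 (3.27-fold), miR-134 by -1.11 ± 0.37, miR-409-3p by -1.11 ± 0.35, miR-127 by -1.11 ± 0.29 and miR-379 by -1.04 ± 0.40. These 5 were all the members detected in the irradiated primary tumour, the array with the highest limit, so a member dim there could not be among them. Their shared direction is therefore no test of the cluster. Of the 12 members in this comparison 41.7% were at least 2-fold lower. Over all 344 probes of this comparison 11% were at least 2-fold lower and 10.2% higher, and of the 181 detected on both arrays 18.8% were lower. The other 7 of the 12 members were detected in metastases alone and none (0) had a bound above 1. Over all probes 35 were higher and 38 lower, which became 30 and 77 under 75th percentile scaling, and 49 and 15 without normalisation. The sign held in each of the 9 other settings for these 5, but the size did not: without normalisation the 5 differences lay between -0.53 and -0.78 and 0 were past 2-fold, and with cyclic loess 1 was. The first and the last comparison share the array of the irradiated primary tumour, which had the highest background, so the high values of miR-127 and miR-379 there enter both. The other comparisons do not set it against another array, though it took part in the quantile normalisation behind them.

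**Figure D4:**
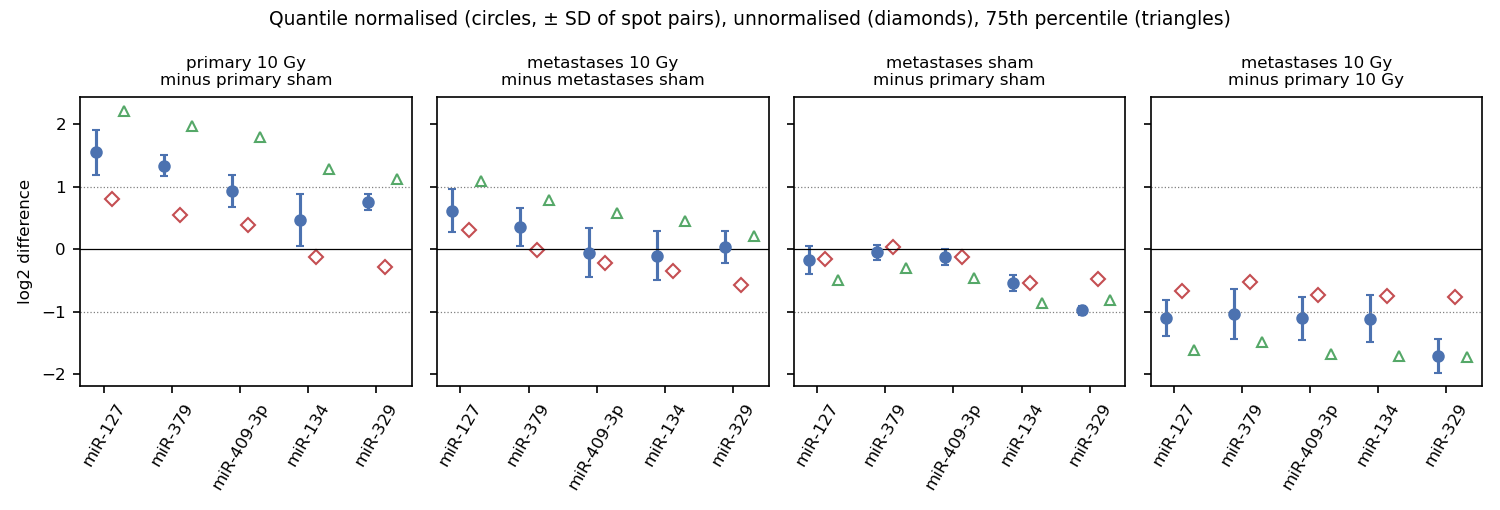
Log2 differences (y axis) of the 5 members detected on all arrays in the 4 comparisons, after quantile normalisation (circles, ± SD over 5 pairs of spots), without normalisation (diamonds) and after scaling to the 75th percentile (triangles); dotted lines mark 2-fold. In the last comparison (metastases against primary tumour after 10 Gy) all symbols are below 0, while in the first miR-134 and miR-329 change sign without normalisation.

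Across both sites, the response to radiation was compared as the difference in metastases minus that in the primary tumour, for the 374 probes that 2 or more arrays detected, 17 of them members. miR-668 was the only member past 1 in size, at -1.37, and it rested on the single bright spot. At least 1 was reached by 0 of 17 members, where the share over all probes was 12%, and at most -1 by 1 of 17, where it was 11.8%. miR-379 (-0.99), miR-409-3p (-0.99) and miR-127 (-0.93) came next. A limma fit that adds a site term and a radiation term has 1 residual degree of freedom and takes in no spread between animals. It called 0 of 17 members for site and 0 of 17 for radiation at an adjusted p of 0.05, as it called 0% of all 374 probes for either. At an unadjusted p under 0.05 the site term of the limma fit across all probes held 1 member, miR-329, and 83 of all probes. The limma log2 difference of miR-329 was -1.35, with a limma adjusted p of 0.186 (unadjusted 0.0286). The radiation term held 0 members and 22 of all probes. For miR-127 the radiation term was 1.08 on the log2 scale, with a limma p of 0.0659 and an adjusted p of 0.753.

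The other detected members were seen on 1 to 3 arrays. miR-770-3p (78.8, 32.5, 113 and 34.3 units in the order primary sham, primary 10 Gy, metastases sham, metastases 10 Gy), miR-494 (77.8, 32.5, 62.6 and 23.0) and miR-382 were detected on 3 arrays. They were missed only in the irradiated primary tumour, where the detection limit stood highest. miR-341, miR-493, miR-668, miR-667, miR-665, miR-540-5p, miR-666-3p, miR-370 and miR-337-5p were detected on both sham arrays and on neither array after 10 Gy (0). Over all 700 probes detection was also lower after 10 Gy, at 26.6% against 48.1% in the primary tumour and 48.4% against 65.6% in metastases. The 9 members named were all those detected on exactly 2 arrays, and 90 of the other 643 probes were detected on any 2. The share of all probes detected on the sham arrays alone was not counted. In the primary tumour, miR-667, miR-370, miR-540-5p and miR-668 had a higher mean intensity after 10 Gy than after sham radiation. The others of this group had a lower one. miR-433, miR-434-3p, miR-337-3p, miR-541, miR-666-5p, miR-654-3p, miR-673-5p, miR-673-3p and miR-410 were detected only in metastases of sham mice, between 9.86 and 38.5 units, and miR-300 only in the sham primary tumour, at 32.1 units. miR-433 and miR-434-3p belong, like miR-127, to the set antisense to Rtl1.

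Detection on 1 array alone was seen for 14 members, and for 104 of the other 643 probes, whichever the array. In metastases after 10 Gy alone it concerned miR-154, miR-485, miR-380-5p and miR-377, between 11.2 and 20.3 units. With the 99th percentile of the empty spots as the limit none (0) of these 4 was detected. The 26 members never detected ranged from -16.0 to 26.4 units over all arrays. Those with the highest mean were miR-431 (16.5 units), miR-434-5p (13.4), miR-381 (10.7) and miR-411 (10.3). miR-376a, miR-376b and miR-376c, known as substrates of A-to-I editing, were among those never detected, as were miR-136 and miR-495.

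Marker microRNAs of other cell types differed between the arrays as well. Summed intensity above the empty spots is given in the order primary sham, primary 10 Gy, metastases sham and metastases 10 Gy. The 5 fibroblast and smooth muscle probes, of which 5, 4, 5 and 5 were detected, summed to 1675, 3040, 16430 and 12010. The 4 muscle probes, all detected on each array, summed to 9585, 4099, 366 and 12990. In the sham primary tumour that sum was nearly all miR-206, at 9443.5 units, which stood at 1478 after 10 Gy. The other 3 muscle probes went the opposite way there: miR-1 had 45.1 and 1794 units, miR-133a 51.2 and 510.3, and miR-133b 45.2 and 316. Of 7 neural probes 3, 2, 3 and 4 were detected, with sums of 4106, 5305, 3700 and 2324 that came mostly from miR-132. The neural miR-128 was detected on every array, at 202, 118, 457 and 276 units. miR-9, at 46.2, -3.42, 135 and 25.6 units, was missed only in the primary tumour after 10 Gy. The defining neural miR-124 was detected only in metastases after 10 Gy, at 38.5 units, and miR-137, miR-138 and miR-219 on no array (0). Of 5 epithelial probes 1, 1, 5 and 5 were detected, with sums of 61.1, 40.4, 6961 and 3659, so the epithelial miR-200 markers of a carcinoma were near background in both primary tumour arrays. The endothelial miR-126 probes summed to 6031, 4282, 32130 and 22410, with miR-126-3p giving nearly all of it, and the erythroid miR-451 and miR-144 to 2234, 599, 18510 and 10350. Nearly all of the erythroid sum was miR-451, as miR-144 was detected only in metastases of sham mice, at 20.1 units. The myeloid miR-223 had 6792, 256, 7354 and 4050.1 units, and the lymphocyte miR-150 had 79.4, 43.8, 3591 and 864. The hepatocyte miR-122 was detected in both metastases arrays alone, at 53.8 and 717 units. The part of cell composition in the differences of the cluster was not tested, and in bulk RNA fewer cells of a type cannot be told apart from less RNA per cell.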

How the data were processed

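Spot intensities of 4 one-colour microRNA arrays, 1 per group, were analysed. Per the file headers, each deposited scanner table lists 3968 spots with their mean intensity, linear and without background subtraction. Commas between digit groups were stripped, and every value was checked to exceed 0. Scanner software and settings are not given here. The authors' value table holds background-subtracted intensity for 346, 310, 354 and 590 probes (column medians 178.86, 129.6, 212.635 and 55.88, in the order primary sham, primary 10 Gy, metastases sham, metastases 10 Gy). Its lowest correlation with the spot means on an array was 0.999957. How its background was chosen is unknown, and it was used as a further setting.

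Spot values were background-corrected by normexp with an offset of 50 (limma 3.58.1, R 4.3.3) and converted to log2, the 5 spots per probe were averaged, and the arrays quantile normalised over 700 probes. A probe detected on 1 of 2 arrays has only a bound: its level there minus the higher of its own level and the lowest detected level on the other array. The bound takes no account of the scatter between spots. The additive limma fit used Benjamini-Hochberg adjustment over 374 probes (prior degrees of freedom 1.519). Scripts were tested on simulated data. The members and lists were chosen with earlier results of these data known. By rule, each member detected on at least 1 array is named, with the 4 undetected ones of highest mean. Sequences come from the scanner tables and were matched to RefSeq (GRCm38.p6). Alternatives covered background, normalisation, spot summary, detection limit, bounds and the value table.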

Additional observations from a re-analysis of the deposited data

How the results depend on the processing

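No paired analysis was possible because each group has 1 array, so no replicate can be left out either. Shares in brackets are those of all probes under the same setting. Members at least 2-fold lower in metastases than in the primary tumour without radiation, 0 as reported (10.6%), were 3 with a normexp offset of 16 (14.2%), 7 with the empty spots' median subtracted (21.4%), 1 with the chip row trend removed (10.7%), 1 without normalisation (11%), 2 with the 75th percentile (14.8%), 3 with cyclic loess (15.6%) and 3 in the authors' value table (23.4%). Members lower in metastases than in the primary tumour after 10 Gy, 5 as reported (11%), were 1 without background correction (7.27%), 0 without normalisation (4.36%), 1 with cyclic loess (7.56%), 3 with the median of the spots (9.88%) and 3 in the authors' value table (12%). Members higher in the primary tumour after 10 Gy, 2 as reported (14.7%), were 1 without background correction (10.9%), 1 with cyclic loess (8.26%), 0 without normalisation (2.06%) and 5 with the 75th percentile (24.2%), and 2 were lower with the empty spots subtracted (20.1%). In metastases after 10 Gy, where 0 were reported, 4 were higher (10.4%) and 4 lower (12.1%) with the empty spots subtracted, 4 higher with the 75th percentile (8.52%) and 1 higher in the authors' value table (6.74%). Differences between the responses of at most -1, held by 1 member as reported (11.8%), were held by 5 with the offset of 16 (13.6%), 9 with the empty spots subtracted (25.1%), 2 with the row trend removed (12%), 7 with the 75th percentile (34%), and 0 without normalisation or with cyclic loess (9.09% in each). With the empty spots subtracted 3 reached at least 1 (25.7%). Detected members were 7 in metastases after 10 Gy with the 99th percentile of the empty spots (12.28%, against 42.15% of the other probes). When all 5 spots were required they were 14 and 3 in metastases after sham and 10 Gy (24.56% and 5.26%, against 52.88% and 31.1% of the other probes). When 1 spot sufficed they were 29, 15, 49 and 53 (primary sham, primary 10 Gy, metastases sham, metastases 10 Gy), or 50.88%, 26.32%, 85.96% and 92.98%, against 67.03%, 41.68%, 89.89% and 93.31% of the other probes, so the shortfall of the cluster was small in metastases by that rule. The cause of these shifts was not tested. Of the values of single members or list medians under an alternative, 226 moved by no more than the scatter between spots and 119 by more, and no difference of at least 2-fold changed sign. Most members lie within a few times the scatter of the empty spots, which limits any size given for them.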

Other observations

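Passenger-strand (star) probes of the same hairpins, and cluster numbers outside the rule, were read in the same way. Of 13 star probes, 4 were detected in the sham primary tumour, 1 in the primary tumour after 10 Gy, 7 in metastases of sham mice and 3 in metastases after 10 Gy. miR-485*, the star partner of miR-485, was the star probe detected on all 4 arrays, with 416 units in the sham primary tumour, 107 in the primary tumour after 10 Gy, 149 in metastases of sham mice and 64.5 in metastases after 10 Gy. Its normalised level was lower in metastases than in the primary tumour without radiation by a difference of -1.13 ± 0.18, the same direction as for miR-329, miR-493 and miR-134, while its difference after 10 Gy in the primary tumour was -0.42 ± 0.24. In the comparison without radiation 1 of 7 star probes was at least 2-fold lower, where 10.6% of all 473 probes were. The median over the 7 star probes there was -0.05. miR-485 itself was detected only in metastases after 10 Gy, at 11.9 units.

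miR-382* and miR-299* were detected on 3 arrays each, and miR-299* had its highest value, 65.4 units, in metastases of sham mice. miR-431* was detected on both sham arrays. miR-127*, miR-411* and miR-433* were detected in metastases of sham mice alone, between 12.6 and 27.2 units. Of the 5 other cluster numbers, miR-1188 was detected on both sham arrays (32.4 and 35.8 units), miR-1193 on both metastases arrays (48.1 and 21.9 units), miR-412 and miR-453 in metastases of sham mice alone (21.9 and 23.5 units), and miR-1197 on none (0).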
